A study of Mus musculus with 24 samples.

Results

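Transcripts of 10 cytokine genes were followed in both hemispheres of the mouse brain after a stroke or a sham operation: Il1a, Il1b, Il1rn, Il6, Tnf, Lif, Csf1, Il11, Il10 and Tgfb1. The genes were chosen by symbol from a list of inflammatory and regulatory cytokines, and each was represented by 1 probe set among the 19505 genes that the array named. All animals were male C57Bl/6j mice of 8 to 10 weeks. Middle cerebral artery occlusion (MCAO) by the intraluminal approach lasted 90 min in 8 of them, with 30 min of reperfusion, and the other 4 had a sham operation. Brains were perfused with saline and taken 2 h after onset. The 2 hemispheres of each of the 12 mice were hybridised to an array each, which gave 8 ipsilateral and 8 contralateral MCAO arrays and 4 of each side from sham mice. Whole hemispheres were used, so the values average all cells and regions of a side. In such bulk tissue, fewer cells of a type and less RNA per cell cannot be told apart.

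Cytokines are small secreted proteins through which immune cells, glia and vessels signal. Interleukin 1 (Il1a, Il1b) and tumour necrosis factor (Tnf) are early alarm signals that act through NF-kappa-B and MAP kinases, and Il1rn encodes the antagonist that occupies the interleukin 1 receptor. Il6, Lif and Il11 share the receptor subunit gp130 (Il6st) and signal through JAK kinases and STAT3. Csf1 sustains microglia through its receptor Csf1r, and Il10 and Tgfb1 restrain inflammatory responses.

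The values were log2 probe-set signals, and each was set against the 5222 negative control rows of its own array. A probe set counted as above background on an array where it exceeded the 95th percentile of those rows. On 20 arrays that percentile was 5.17 to 5.74, and 37.0% to 45.1% of the 22206 tested probe sets exceeded it. Both hemispheres of 2 animals, MCAO mouse 3 and sham mouse 1, gave 4 arrays that stood apart. Their percentile was 7.41 to 7.61, 3.04% to 5.08% of probe sets exceeded it, and their median correlation with the other arrays was 0.328 to 0.55 against 0.981 to 0.989 among the 20. Results are therefore given on all 24 arrays and on the 20. Signals of different genes are not compared, since probe sets differ in brightness for the same amount of RNA.

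Of the 10 genes, Csf1 alone was above background. It exceeded the threshold on all 20 arrays, in MCAO and sham mice and on both sides, and on 0 of the 4 arrays that stood apart. The other 9 genes (Il1a, Il1b, Il1rn, Il6, Tnf, Lif, Il11, Il10 and Tgfb1) exceeded it on 0 of 24 arrays. Across all 19505 genes, 34.5% were above background on all 20 arrays and 49.6% on 0 of 24. A signal below background bounds the transcript from above and does not show that it was absent.

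**Figure D1:**
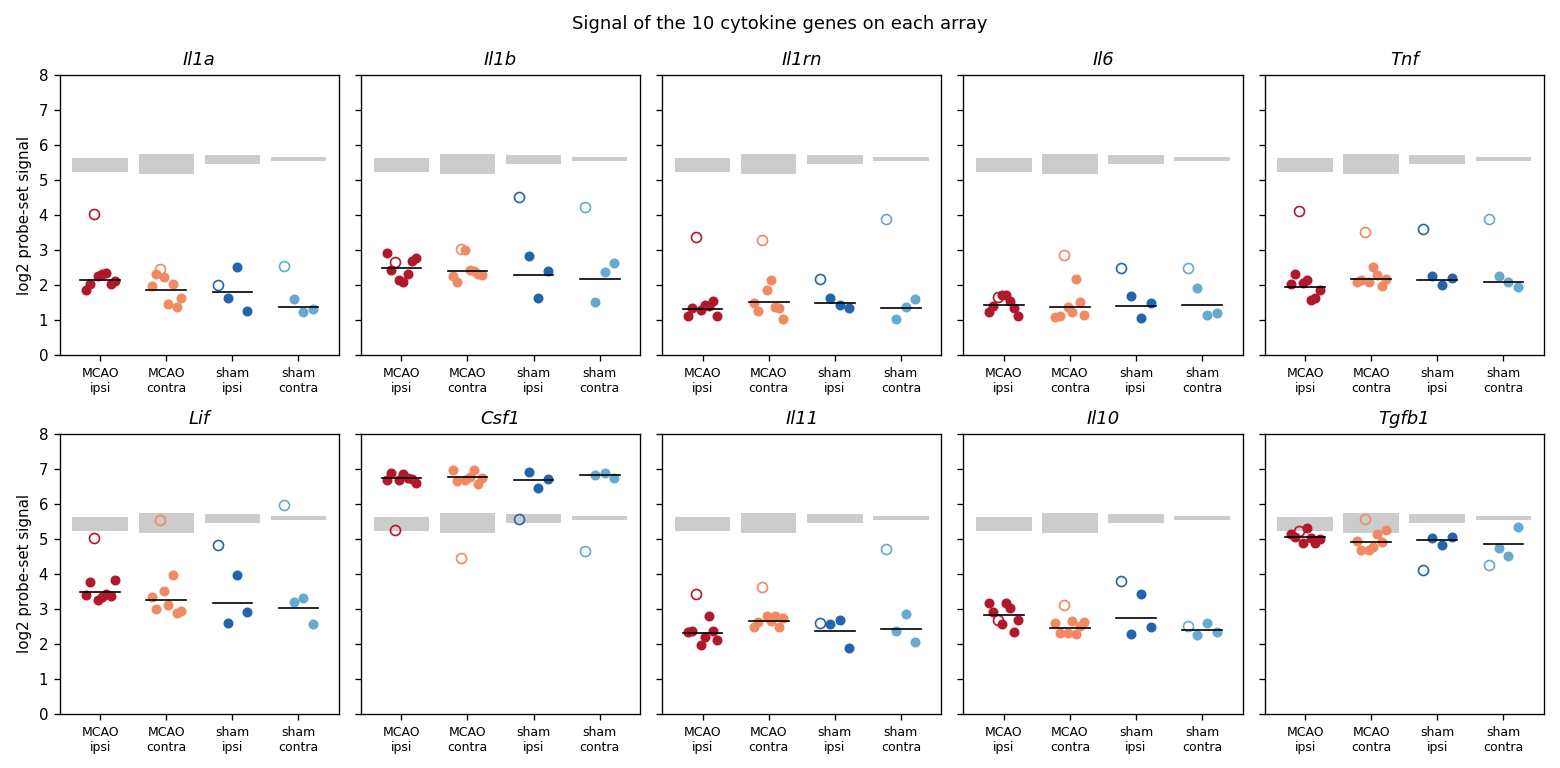
Log2 probe-set signal (vertical axis) of each cytokine gene on every array, by surgery and hemisphere (horizontal axis; ipsi, ipsilateral; contra, contralateral). Each point is 1 array, open points are the 4 arrays that stood apart, black lines are means of the filled points, and grey bands span the 95th percentile of the negative control rows over the filled arrays of that group. Filled points of Csf1 sit at 6.46 to 6.97, above every band, and those of the other 9 genes lie below the threshold of their own array.

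Csf1 encodes macrophage colony-stimulating factor, a survival factor of microglia. On its probe set (TC0300002718.mm.2) the 7 occluded hemispheres without mouse 3 read 6.60 at the lowest, 6.70 at the median and 6.88 at the highest, and the opposite hemispheres 6.55, 6.73 and 6.97. In sham mice 2 to 4 the ipsilateral hemispheres read 6.90, 6.46 and 6.71 and the contralateral ones 6.81, 6.89 and 6.74. The 4 groups overlapped. Their means on the 20 arrays were, from the top, 6.82 ± 0.07 in the sham contralateral (SD, n = 3), 6.76 ± 0.16 in the MCAO contralateral (SD, n = 7), 6.73 ± 0.10 in the occluded (SD, n = 7) and 6.69 ± 0.22 in the sham ipsilateral hemispheres (SD, n = 3). No neighbours in that order were farther apart than their SD. The signals lay 0.89 to 1.80 above the threshold, at percentile 97.9 to 98.9 of the negative rows, and the 99th percentile was exceeded on 0 arrays. MCAO mouse 3 read 5.25 and 4.45 on the ipsilateral and contralateral side, and sham mouse 1 read 5.56 and 4.64. All 4 of these values were lower than the 20 others.

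Tgfb1, which encodes the latent growth factor TGF-beta 1, lay just below the threshold. Its probe set (TC0700000424.mm.2) read 4.89, 5.03 and 5.30 at the lowest, median and highest of the 7 occluded hemispheres and 4.68, 4.92 and 5.26 in the opposite ones. Sham mice 2 to 4 read 5.03, 4.82 and 5.05 on the ipsilateral and 4.74, 4.51 and 5.33 on the contralateral side. These 20 values overlapped between groups and fell 0.20 to 1.11 short of the 95th percentile, at percentile 83.5 to 93.6 of the negative rows. On the 4 arrays that stood apart Tgfb1 read 4.11 to 5.57.

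The interleukin 1 ligands and their antagonist were well inside the range of the negative controls. Il1a, an alarm signal held inside cells, read 1.86 to 2.36 in the 7 occluded hemispheres (median 2.12) and 1.39 to 2.33 in the opposite ones (median 1.99). In sham mice 2 to 4 it read 1.64, 2.51 and 1.27 ipsilaterally and 1.62, 1.24 and 1.32 contralaterally. The occluded hemispheres overlapped the opposite and the sham ipsilateral ones and lay above the 3 sham contralateral values, with all of these signals below background. Il1b, the form that is cleaved by caspase 1 and secreted, had medians of 2.44 in the occluded and 2.31 in the opposite hemispheres, and a range of 1.52 to 3.00 over the 20 arrays. Il1rn read 1.05 to 2.16 on the 20, with medians of 1.35 and 1.37 in the occluded and opposite hemispheres. The median position of the 20 values among the negative rows was at percentile 29.7 for Il1a, 38.2 for Il1b and 11.6 for Il1rn.

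Tnf, the founding ligand of its family, read 1.59 to 2.33 in the 7 occluded hemispheres (median 2.04) and 1.98 to 2.52 in the opposite ones (median 2.14). Sham mice 2 to 4 read 2.25, 2.02 and 2.21 on the ipsilateral and 2.27, 2.09 and 1.94 on the contralateral side. All groups overlapped. The 20 values lay 2.93 to 3.74 below the threshold. On the 4 arrays that stood apart Tnf read 3.53 to 4.11, above each of the 20 others.

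Among the gp130 ligands, Il6, an inducer of acute-phase responses, had a median at percentile 11.1 of the negative rows over the 20 arrays. It read 1.11 to 1.73 in the 7 occluded hemispheres and 1.09 to 2.19 in the opposite ones, and was below even the median of the negative rows on all 24 arrays. Lif, a neuropoietic cytokine, read 3.25 to 3.84 in the occluded hemispheres (median 3.40) and 2.88 to 3.97 in the opposite ones (median 3.12), and its 20 values had a median at percentile 60.9 of the negative rows. Il11 read 1.96 to 2.81 in the occluded hemispheres (median 2.33) and 2.49 to 2.80 in the opposite ones (median 2.67). Sham mice 2 to 4 read 2.58, 2.68 and 1.89 for Il11 ipsilaterally and 2.36, 2.87 and 2.06 contralaterally. For all 3 ligands the groups overlapped.

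Il10, the prototypic anti-inflammatory interleukin, read 2.33 to 3.17 in the 7 occluded hemispheres (median 2.91) and 2.28 to 2.66 in the opposite ones (median 2.52). In sham mice 2 to 4 it read 2.29, 3.42 and 2.48 ipsilaterally and 2.26, 2.61 and 2.35 contralaterally. The groups overlapped, and the 20 values lay 2.15 to 3.42 below the threshold. For each of the 9 genes below background, the highest value over the 24 arrays was on an array that stood apart.

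**Figure D2:**
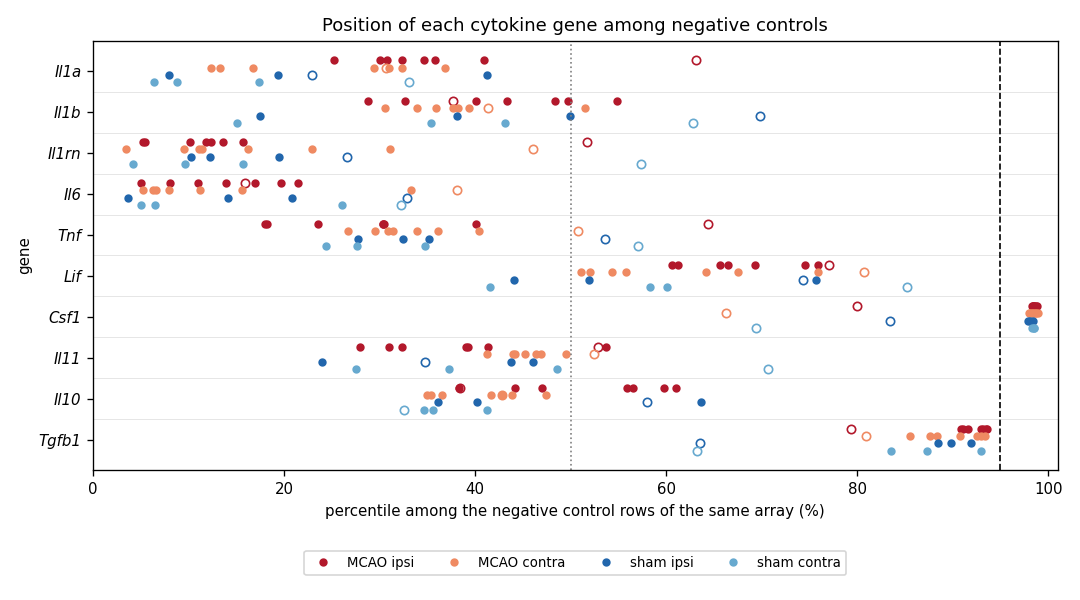
Position of each cytokine gene (vertical axis) among the negative control rows of the same array, as a percentile (horizontal axis). Each point is 1 array, coloured by surgery and hemisphere, and open points are the 4 arrays that stood apart; the dashed line marks the 95th percentile and the dotted line the median. Csf1 lies at 97.9 to 98.9 on the filled arrays, Tgfb1 at 83.5 to 93.6, and Il6 at 3.64 to 33.3.

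The occluded hemisphere was compared with the opposite hemisphere of the same mice, which shows what differed between the sides 2 h after onset. None of the 10 cytokine genes passed the test, in limma with mouse as a block and Benjamini-Hochberg adjustment over 22206 probe sets, where 0.0856% of all probe sets passed (19 of them). On the 20 arrays 0 of 10 passed against 0.135%. One gene, Il1a, had an unadjusted p under 0.05 on all arrays, and 3 did on the 20 (Tnf, Il11 and Il10). Of the 22206 probe sets, 918 had such a p on all arrays and 1577 on the 20. The median log2 difference of the 10 genes was 0.05 on all arrays, and that of all tested probe sets was -0.002.

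Csf1, which was measured above background on both sides, differed by -0.03 ± 0.09 (SE; log2, occluded minus opposite) on the 20 arrays, with a 95% interval of -0.23 to 0.17 that corresponds to 0.852-fold to 1.12-fold. Its limma adjusted p was 0.98, and 3 of 7 mice were higher on the occluded side. With all 24 arrays the difference was 0.07 ± 0.15 (95% interval -0.25 to 0.39), so the sign turned without the 4 arrays, as it did without MCAO mouse 3 alone (-0.03). Tgfb1 differed by 0.13 ± 0.11 on the 20 arrays and 0.07 ± 0.13 on all, with 4 of 8 mice higher on the occluded side.

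For the genes below background on both sides, differences are given on the log2 scale without folds. In 6 of 8 MCAO mice Il1a read higher on the occluded side, with a mean difference of 0.44 ± 0.20 (limma adjusted p = 0.94). Mouse 3 had the highest difference of the 8, 1.56. Without the 4 arrays the mean difference was 0.28 ± 0.17 (adjusted p = 0.82), and 2 of 4 sham mice were also higher on the operated side. Il1b differed by 0.03 and Il1rn by -0.15 on all arrays, and by 0.08 and -0.18 on the 20.

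Tnf read lower on the occluded side in 6 of 8 mice, by -0.14 ± 0.14 on all arrays and -0.24 ± 0.10 on the 20 (limma adjusted p = 0.67). Il6 differed by -0.10 on all arrays and 0.06 on the 20, and Lif by 0.14 and 0.24. Il11 read lower in 7 of 8 mice, by -0.33 ± 0.20 on all arrays and -0.35 ± 0.11 on the 20 (limma adjusted p = 0.45). Il10 read higher in 6 of 8 MCAO mice, by 0.27 ± 0.16 and 0.36 ± 0.13 (limma adjusted p = 0.53 on the 20), and in all 4 sham mice. None of these differences passed the test.

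**Figure D3:**
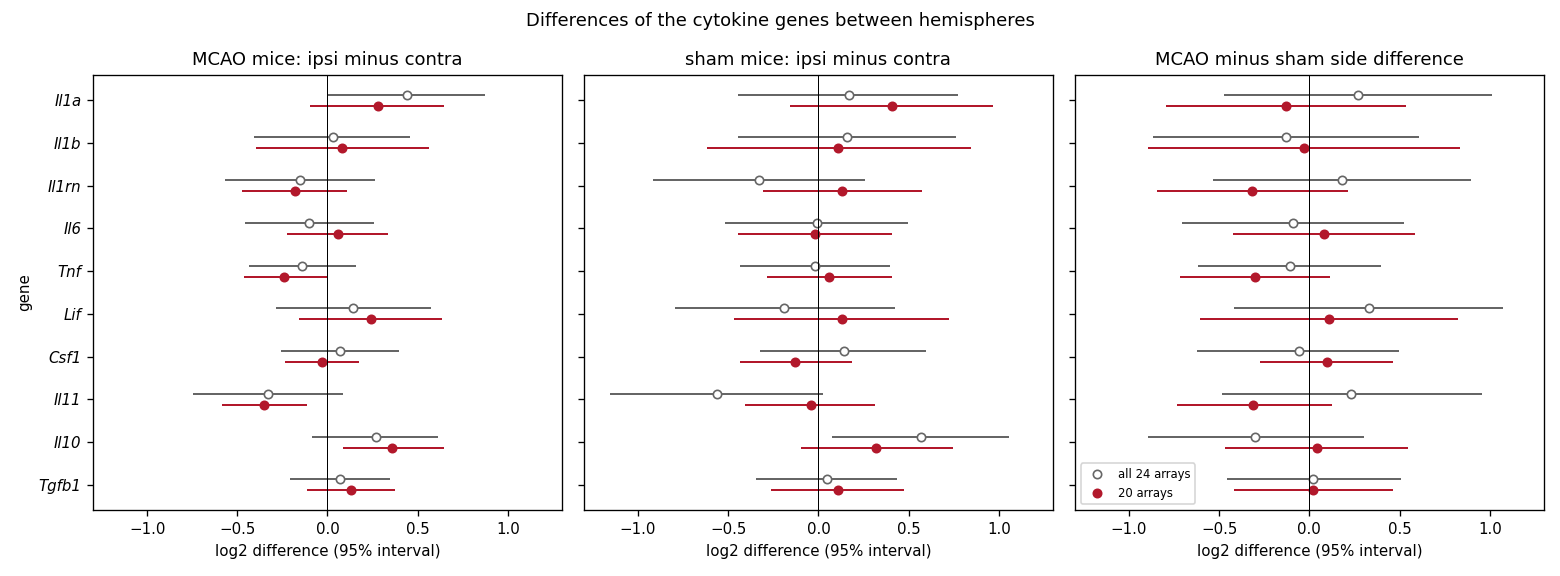
Log2 differences of the 10 cytokine genes (vertical axis) between hemispheres, with 95% intervals from limma as bars (horizontal axis), in MCAO mice (left), in sham mice (centre) and as the difference between these (right). Open grey points use all 24 arrays and filled red points the 20. Intervals of Csf1 are the narrowest of the filled series, and in MCAO mice it lies at -0.03.

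The same comparison in sham mice measures the effect of the operated side without occlusion. It called 0 of 10 cytokine genes, and 0.0% of all probe sets, on all arrays and on the 20 (1390 probe sets had an unadjusted p under 0.05 on all arrays). Il10 had the smallest unadjusted p of the 10, with 0.57 ± 0.23 (limma adjusted p = 0.71), and 0.32 ± 0.19 on the 20 arrays. Csf1 differed by 0.14 ± 0.21 on all arrays and -0.13 ± 0.14 on the 20. Il11 differed by -0.56 ± 0.28 on all arrays and -0.04 ± 0.16 on the 20, where the contralateral value of sham mouse 1, 4.72, was left out.

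Whether the side difference itself differed between MCAO and sham mice was tested as an interaction. None of the 10 genes passed (0.0% of all probe sets did; 1138 had an unadjusted p under 0.05 on all arrays), with differences of -0.30 to 0.33 on all arrays and -0.32 to 0.11 on the 20. For Csf1 the interaction was -0.06 ± 0.26 on all arrays and 0.10 ± 0.17 on the 20 (95% interval -0.27 to 0.46).

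Between mice, the occluded hemispheres were set against the sham ipsilateral ones. None of the 10 genes passed, where 0.0045% of all probe sets did on all arrays and 0.149% on the 20. Csf1 differed by 0.14 ± 0.34 on all 12 arrays of that side and by 0.04 ± 0.13 on the 20-array set (95% interval -0.23 to 0.31). Tgfb1 differed by 0.31 ± 0.22 and 0.08 ± 0.13. On the contralateral side 0 of 10 genes passed and 0.0% of all probe sets (81 had an unadjusted p under 0.05 on all arrays), and Csf1 differed by 0.20 ± 0.53 on all arrays and -0.06 ± 0.13 on the 20 (95% interval -0.33 to 0.22). These comparisons share arrays with the within-mouse ones and are not independent of them.

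Over the 20 arrays, the genes whose signal followed Csf1 most closely were Dnajb14, an Hsp40 co-chaperone (Pearson r = 0.73), Tyk2, a JAK-family kinase (0.72), and Lpar1, a lysophosphatidic acid receptor (0.69), among 8546 candidate genes. These points share hemispheres of the same mice, and the correlations are a description.

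Of 36 further cytokines measured, 4 were above background on all 20 arrays: Il18, an interleukin 1 relative, Il33, a nuclear alarmin, Il34, the second ligand of Csf1r, and Mif, a macrophage factor. Ctf1 was above it on 18 and Tgfb3 on 17 of the 20, and the other 30 on 0 of 24. Over all genes, 34.5% were above background on all 20 and 49.6% on 0 of 24. None passed in the MCAO side comparison, on all arrays or on the 20, and their median difference was 0.02 in both. The smallest p-values on all arrays were those of Il27 (-0.48) and Ifng (0.33), both below background throughout (limma adjusted p = 0.94 each). On the 20 arrays the smallest was that of Il24 (0.41 ± 0.08, limma adjusted p = 0.092), against 0.24 ± 0.15 on all arrays. Il24 was also below background throughout, and was singled out after its values were seen.

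Of 15 cytokine receptor genes, 4 were above background on all 20 arrays: Il1rap, the accessory chain of the interleukin 1 receptor, Il6st, Lifr and Csf1r. That share was 26.7%, against 34.5% of all genes. The gp130 chain Il6st was thus above background, and Il6, Lif and Il11, the gp130 ligands among the 10 genes, were not. This does not extend to gp130 ligands outside the 10. Csf1r was above background along with its ligands Csf1 and Il34. None of the 15 passed in the MCAO side comparison. Il1r1, the signalling chain for interleukin 1, read lower on the occluded side in 7 of 8 mice, by -0.46 ± 0.17 (limma adjusted p = 0.94; -0.45 and 0.37 on the 20), and was above background on 2 of 20 arrays. In sham mice its side difference was -0.56 ± 0.23 on all arrays and -0.22 ± 0.19 on the 20. The interaction was 0.09 ± 0.29 and -0.24 ± 0.23. Tgfbr1, a TGF-beta receptor kinase above background on 19 of 20, read higher in 8 of 8 mice by 0.24 (adjusted p = 0.94).

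Among 14 transducers of interleukin 1 and TNF, 7 were above background on all 20 arrays, among them Rela, the p65 subunit of NF-kappa-B, and the kinases Map3k7, Mapk8 and Mapk14. Among 9 transducers of gp130, IL-10 and TGF-beta signals, 8 were, including Jak1, Jak2, Stat3 and Smad2 to Smad4. Together, 65.2% of these 23 genes were above background on all 20, against 34.5% of all genes. None of the 23 passed in the MCAO side comparison. The smallest p-values among the 14 were those of Traf6 (-0.40, lower on the occluded side in 8 of 8 mice) and Ikbkg (-0.28), and among the 9 those of Smad4 (0.23) and Smad2 (-0.15), each with a limma adjusted p of 0.94.

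Processing and release genes include caspase 1 (Casp1) and Adam17, which free interleukin 1 beta and TNF. Of 11 such genes, in a list chosen with earlier results of these data known, 1 passed, where 0.0856% of all probe sets did. Thbs1, a matrix protein that can activate latent TGF-beta, rose on the occluded side by 0.99 ± 0.14 (limma adjusted p = 0.0063, higher in 8 of 8 mice). It read 4.11 to 5.18 in the occluded and 2.94 to 4.77 in the opposite hemispheres of the 8 mice, below background on all arrays, so no fold is given. In sham mice its side difference was -0.00 ± 0.20, and the interaction did not pass (1.00 ± 0.25, limma adjusted p = 0.89). Against the sham ipsilateral hemispheres Thbs1 did not pass on all arrays (1.07 ± 0.36, limma adjusted p = 0.97). On the 20 it passed (1.44 ± 0.22, limma adjusted p = 0.013), as did 0.149% of all probe sets.

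Among 22 feedback and target genes of these pathways, 1 rose on the occluded side on all arrays and 3 on the 20. Of all probe sets, 0.0856% and 0.135% passed. This list was also chosen with earlier results of these data known. Ptgs2, the inducible cyclooxygenase, read 7.40, 7.88 and 8.52 at the lowest, median and highest of 7 occluded hemispheres and 5.79, 6.58 and 7.61 in the opposite ones, against 5.71 to 6.19 in the 6 sham hemispheres. It rose by 1.63 ± 0.24 or 3.09-fold on all arrays (limma adjusted p = 0.0076) and by 1.38 ± 0.17 or 2.60-fold on the 20 (adjusted p = 0.0044), in 8 of 8 mice. Its call was lost after quantile normalization (1.82, limma adjusted p = 0.694) and in a fit of the MCAO mice alone (adjusted p = 0.055), and the calls of Ptgs2 and Thbs1 were both lost with no replicate block. On the 20 arrays Zfp36, which encodes an RNA-binding protein that destabilises cytokine messages, rose by 1.28 ± 0.15 (limma adjusted p = 0.0033; 1.10 and 0.30 on all). Its opposite hemispheres were above background on 4 of 7 arrays. Dusp1, a MAP kinase phosphatase, rose by 0.93 ± 0.14 or 1.91-fold on the 20 (limma adjusted p = 0.017; 0.86 and 0.095 on all). Zfp36 and Dusp1 were singled out after their values were seen. The interaction passed for none of Ptgs2, Zfp36 and Dusp1 (limma adjusted p = 0.89 each on all arrays).

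The remaining feedback genes did not pass. Socs3, the STAT3-induced inhibitor, differed by 0.45 on all arrays and 0.33 on the 20, and was below background on all 20. Nfkbia, the NF-kappa-B inhibitor that its own pathway induces, was above background on all 20 and differed by -0.12 and -0.17. The feedback genes Nfkbiz and Tnfaip3 differed by 0.36 and 0.25 on all arrays and by 0.42 and 0.40 on the 20. They were above background on 4 and 3 of the 20, all of them occluded hemispheres. Against the sham ipsilateral hemispheres on the 20 they read higher by 0.78 ± 0.17 and 1.11 ± 0.31. Neither passed there (limma adjusted p = 0.16 and 0.35). The chemokine gene Ccl2 differed by 0.39 and 0.25, below background on all 20. The genes named here were also singled out after their values were seen.

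On the 20 arrays, occluded against sham ipsilateral hemispheres showed 4 of the 22 feedback genes higher, where 0.149% of all probe sets passed. The list was chosen with earlier results of these data known. Zfp36 was higher by 2.00 ± 0.20, Ptgs2 by 2.10 ± 0.22, Dusp1 by 1.69 ± 0.12 and Cebpb, a transcription factor downstream of interleukin 6, by 0.80 ± 0.14. Their limma adjusted p-values were 0.00015, 0.00018, 5.7e-06 and 0.025. Zfp36 and Cebpb were below background on all sham arrays. Cebpb was above it on 3 of 24 arrays, 1 of them an occluded hemisphere. For Zfp36 and Cebpb these are thus differences from background signals and no fold is given. Ptgs2 and Dusp1 were above background on all 3 sham ipsilateral arrays of the 20, and their differences correspond to 4.29-fold and 3.22-fold. On all 24 arrays 0 of 22 passed in this comparison.

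**Figure D4:**
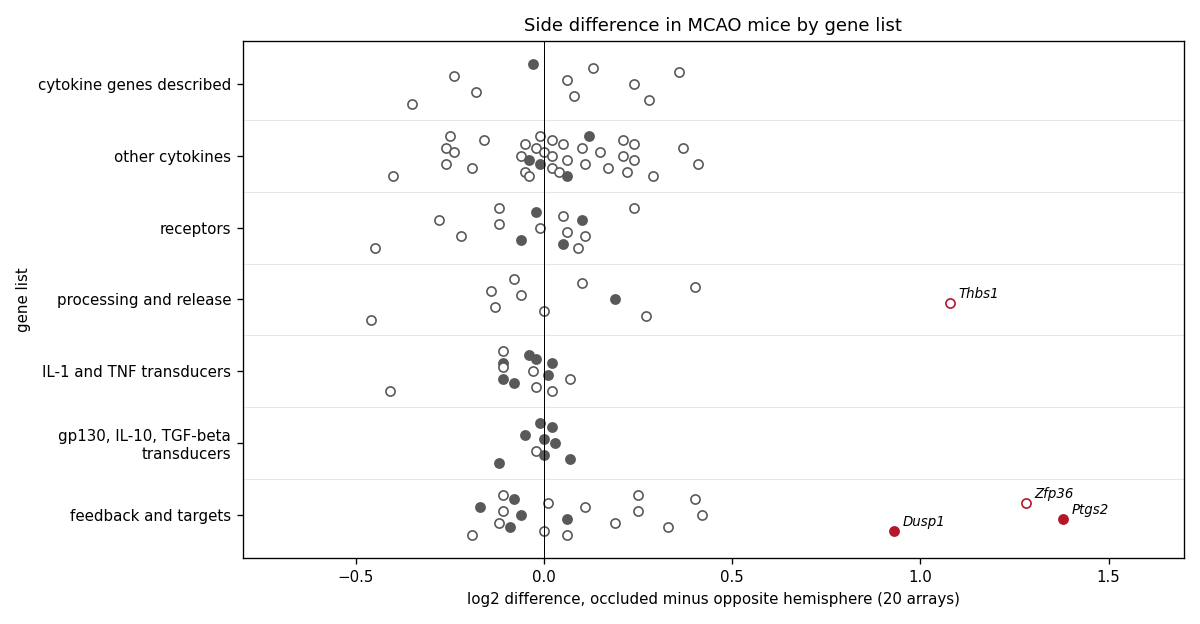
Log2 difference between the occluded and the opposite hemisphere of MCAO mice on the 20 arrays (horizontal axis) for the 10 cytokine genes and 6 lists of related genes (vertical axis; the spread within a band is for legibility). Each point is 1 gene, filled where it was above background on all 20 arrays, and red with its name where limma's adjusted p was under 0.05. The red points are Thbs1 (1.08), Zfp36 (1.28), Ptgs2 (1.38) and Dusp1 (0.93), and no cytokine gene is red.

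Markers of the cells that make these cytokines were read on the same arrays. Of 15 microglial markers, 11 were above background on some or all of the 20 arrays. Among these, 4 were above it on all 20 (P2ry12, Csf1r, Fcrls and C1qb). The remaining 4 markers were below background on all 24 arrays. The share above background on all 20 was 26.7%, against 34.5% of all genes. The mean signal of the 15 markers was 5.58 to 5.95 in the occluded and 5.44 to 5.96 in the opposite hemispheres of the 20 arrays. All 13 markers of neutrophils and monocytes were below background on all 24 arrays, with a mean signal of 2.43 to 2.70 in the occluded and 2.44 to 2.68 in the opposite hemispheres of the 20 arrays. All 7 markers of brain macrophages were below it too, as were 49.6% of all genes. All 12 neuronal, 9 astrocyte and 8 oligodendrocyte markers were above background on the 20 arrays, as were 34.5% of all genes. No marker of these 6 lists passed in the MCAO side comparison.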

How the data were processed

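Both hemispheres of 8 MCAO and 4 sham mice were profiled on 24 whole-transcript Affymetrix arrays. Per the submitters' processing notes, the authors used Affymetrix Expression Console, and the table they deposited holds 1 log2 signal per probe set and array. Not given in the sources used here are the genome build and how background was corrected and signals normalized, so no coordinates are printed, and the log2 scale was inferred from the values. Of 29129 probe sets, 6923 array controls were left out of tests, and 22206 were tested with no filter (19572 with 1 gene symbol in the platform annotation, 2634 unnamed here, 0 with several). The probe set of highest mean stood for a gene. Identical values were found in 0 pairs of arrays.

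Differences were fitted with limma 3.58.1 in R 4.3.3 (lmFit, eBayes), within mice on all arrays with mouse as a fixed block, since the labels give both hemispheres of a numbered mouse, and between mice on the 12 arrays of a side. P-values were adjusted by Benjamini-Hochberg, threshold 0.05. Errors are standard errors unless SD is written, and the number of arrays limits their precision. The fit was tested on simulated data. Members and gene lists were chosen with earlier results of these data known. Named genes were the 10 members, up to 4 called genes of each related list with the greatest difference (or the 2 with the smallest p), and the 3 genes most like a member above background on at least 4 of the 8 occluded hemispheres. Alternatives changed the arrays kept, normalization, centring, filter, weights, variance prior, probe-set rule, block and background threshold. Figures used matplotlib 3.10.9 in Python 3.11.15.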

Additional observations from a re-analysis of the deposited data

Results flagged for a closer look

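In each surgery and hemisphere group of 4 or 8 arrays, the highest and lowest log2 signal of the genes were compared with their neighbours by Dixon's criterion at 95%. Of 40 groups of signals, 14 held an array set apart, where chance marks about 1 in 20. Of 20 groups of side differences of single mice, checked the same way, 0 did. In 13 of the 14 it was an array of MCAO mouse 3 or sham mouse 1, which also stood apart over all probe sets. In the occluded hemisphere of MCAO mouse 3, Il1a read 4.02, Il1rn 3.38, Tnf 4.11 and Lif 5.03, each above the other 7 mice, and Csf1 read 5.25, below them. In its opposite hemisphere Tnf read 3.53, Lif 5.54, Il11 3.62 and Il10 3.10, above the others, and Csf1 4.45, below them. Sham mouse 1 read 3.60 for Tnf on the ipsilateral and 3.88 on the contralateral side, above the other sham mice, and 4.64 for Csf1 on the contralateral side, below them. The array elsewhere was the ipsilateral hemisphere of sham mouse 4, where Il11 read 1.89. The genes above the others here were all below the background of these arrays, whose threshold was 7.41 to 7.61.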

How the results depend on the processing

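The count of cytokine genes called was 0 in each comparison under every alternative run, including no replicate block (0 genes), where the pairing of hemispheres within mice was ignored, and 0 to 0 with each mouse left out in turn. Where dim probe sets were filtered out, the 9 genes below background were not tested, and the count covers Csf1 alone. The count of genes above background on at least 1 of 24 arrays moved with the threshold, from 1 to 0 at the 99th percentile of the negative rows and to 9 at their median, an alternative added after seeing the data. On the 20 arrays, 2 genes exceeded that median on all and 4 on none. Differences near 0 changed sign. Without the 4 arrays and with array quality weights, the MCAO side difference was 0.06 and 0.03 for Il6 and -0.03 and -0.00 for Csf1. For Csf1 the sham side difference became -0.13 and -0.08, the interaction 0.10 and 0.08, and the contralateral difference -0.06 and -0.07. Quantile normalization gave -0.05 for Csf1 between the ipsilateral hemispheres and -0.03 for the interaction of Tgfb1. With each mouse left out in turn, the MCAO side difference ranged from -0.06 to 0.15 for Il1b, -0.18 to 0.06 for Il6 and -0.03 to 0.12 for Csf1. In the same runs Csf1 ranged from -0.13 to 0.32 in the sham side difference, -0.25 to 0.20 in the interaction, -0.14 to 0.32 between ipsilateral and -0.34 to 0.49 between contralateral hemispheres, and Tgfb1 from -0.04 to 0.15 in the sham side difference and -0.09 to 0.11 in the interaction. The causes were not tested. In the MCAO side comparison, probe sets called over the whole array numbered 19, but 64 with array weights, 30 without the 4 arrays, 29 with mouse as a random block, 9 with only MCAO mice, 6 after quantile normalization and 0 with no replicate block (105 at an unadjusted p under 0.05). Between ipsilateral hemispheres 1 was called, but 50 with array weights and 33 without the 4 arrays. With each mouse left out these counts were 10 (without MCAO mouse 8) to 23 and 0 to 17 (without MCAO mouse 3). The calls of Thbs1 and Ptgs2 held with each mouse left out, and Zfp36 and Dusp1 also passed without sham mouse 1 (limma adjusted p = 0.032 each). The 9 genes below background have only an upper limit on their signal.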
